A study of Mus musculus with 4 samples.

Results

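The 29 genes described here encode enzymes of cholesterol and fatty acid synthesis and the proteins that control or carry sterols. They were taken by gene symbol from the 31053 features of the count matrices. The set was chosen by UMI counts of these libraries. Sterol genes had stood among the largest differences of bile duct cells between recovery and injury in an earlier pass. Every duct-cell value for that contrast is thus a description and supports nothing by itself. The same holds for duct-cell levels set beside other classes, since they include the levels that chose the genes. By role the genes fall into 7 of the mevalonate pathway (Acat2, Hmgcs1, Mvk, Pmvk, Mvd, Idi1, Fdps), 11 of the steps that make squalene and turn it into cholesterol (Fdft1, Sqle, Lss, Cyp51, Tm7sf2, Msmo1, Nsdhl, Hsd17b7, Ebp, Sc5d, Dhcr7), 4 that sense, control or carry sterol (Insig1, Srebf1, Srebf2, Stard4) and 7 of fatty acid synthesis (Acly, Acaca, Fasn, Elovl6, Scd1, Scd2, Me1). The first 3 groups are called the 22 sterol genes below, and the first 2 groups the 18 sterol enzymes.

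Non-parenchymal cells were taken from livers of Col1a2-CreERT2 mice with a tdTomato reporter, in which a promoter of collagen-producing cells drives an inducible recombinase. The labels spell the reporter allele differently in each group: R27RtdTomato for positive recovery, R28RtdTomato for negative injury and R29RtdTomato for negative recovery. Injury was a diet without methionine and choline and with 45% fat, given for 8 weeks with 0.1% L-methionine in the drinking water (MCDHF), and recovery mice are labelled only as such. Positive and negative refer to the reporter fraction, and each of the 4 groups was 1 library, so no difference below has a replicate check and none was tested. The sources used here give neither the age, number or pooling of the animals nor the length of recovery. Of the positive injury library, with 5311 barcodes, the counts were not used here, which leaves recovery against injury in the negative fraction alone.

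Cholesterol is built from acetyl-CoA through mevalonate, isoprenoid diphosphates, squalene and lanosterol. When membranes of the endoplasmic reticulum are poor in sterol, the transcription factor SREBP-2 (gene Srebf2) is released to the nucleus and raises the genes of this pathway, whereas INSIG proteins hold its precursor back when sterol is plentiful. SREBP-1 (gene Srebf1) acts more on fatty acid synthesis. Hepatocytes are the main site of both syntheses in the liver, but dividing, secreting and lining cells also make sterol.

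Promoters from RefSeq were matched for 23 of the 29 genes, and no sequence is shown for Fdft1, Fdps, Sqle, Stard4, Scd1 and Scd2. The 250 bases before the start site are printed (GRCm38.p6, strand of the gene, 5′ to 3′) for 4 sterol genes with large recovery-to-injury ratios in duct cells and for Acly, whose level was highest in endothelial cells. Capitals mark TCACNCCAC (the sterol regulatory element used in the search), CACGTG (an E-box) and CCAAT, each read on both strands, so that CCAAT on the other strand appears as ATTGG.
Hmgcs1 (chr13:119690101-119690350, plus strand): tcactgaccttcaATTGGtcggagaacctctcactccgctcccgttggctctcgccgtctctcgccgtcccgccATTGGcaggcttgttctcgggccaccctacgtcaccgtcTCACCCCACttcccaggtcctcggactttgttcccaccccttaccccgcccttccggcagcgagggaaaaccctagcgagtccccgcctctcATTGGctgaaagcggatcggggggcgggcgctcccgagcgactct
Idi1 (chr13:8885356-8885605, plus strand): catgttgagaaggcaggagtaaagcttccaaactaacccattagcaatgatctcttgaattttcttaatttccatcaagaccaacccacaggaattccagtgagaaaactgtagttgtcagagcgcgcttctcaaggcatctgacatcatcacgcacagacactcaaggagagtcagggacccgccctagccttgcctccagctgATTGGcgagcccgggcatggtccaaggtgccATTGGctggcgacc
Insig1 (chr5:28071162-28071411, plus strand): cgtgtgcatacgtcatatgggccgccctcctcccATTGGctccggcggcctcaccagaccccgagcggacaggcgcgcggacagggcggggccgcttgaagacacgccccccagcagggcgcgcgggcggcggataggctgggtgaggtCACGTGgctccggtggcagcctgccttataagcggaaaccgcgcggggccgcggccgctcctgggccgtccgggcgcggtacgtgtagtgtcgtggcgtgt
Msmo1 (chr8:64733579-64733828, minus strand): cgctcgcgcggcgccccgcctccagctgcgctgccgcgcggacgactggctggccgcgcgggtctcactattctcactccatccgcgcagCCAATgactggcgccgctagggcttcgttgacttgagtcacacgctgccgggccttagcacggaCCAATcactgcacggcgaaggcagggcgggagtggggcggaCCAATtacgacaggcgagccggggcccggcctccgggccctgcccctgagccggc
Acly (chr11:100528001-100528250, minus strand): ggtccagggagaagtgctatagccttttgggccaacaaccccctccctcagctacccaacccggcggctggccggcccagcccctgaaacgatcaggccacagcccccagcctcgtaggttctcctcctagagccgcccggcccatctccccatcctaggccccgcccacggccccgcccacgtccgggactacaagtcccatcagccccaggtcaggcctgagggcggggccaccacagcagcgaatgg
The 4 sterol promoters each hold at least 1 CCAAT, and the window of Acly holds none of the marked letters. CCAAT was present in 20 of the 29 promoters of the 23 matched genes (some genes have several start sites), or 69.0%, against 33.8% of all 32851 promoters of the same length. By gene it was present for 17 of the 18 matched sterol genes. TCACNCCAC was found for Hmgcs1 alone, in 3.45% of the promoters of the genes described against 1.05% of all, and CACGTG for Dhcr7, Hsd17b7, Insig1 and Sc5d, in 13.8% against 6.02%. GGGCGG, the GC box, was in 72.4% against 32.7%. The shares were not matched for base composition. A match describes the letters and is not evidence of binding.

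The 3 libraries analysed held 2606 to 6160 barcodes and 27816768 to 49993127 UMIs (unique molecular identifiers, each standing for 1 captured transcript end), and 2380 to 5443 cells were kept. Any pair of libraries shared 3 to 9 barcodes. Cells were sorted into classes by at least 1 UMI of both genes of a pair: Epcam and Spp1 for duct, Kdr and Ptprb for endothelial, Upk3b and Nkain4 for mesothelial, Lrat and Reln for stellate cells. Duct cells numbered 25 in the positive recovery, 384 in the negative recovery and 1024 in the negative injury library, endothelial cells 146, 2285 and 3571, mesothelial cells 1275, 67 and 255, and stellate cells 143, 5 and 38. Doublets were called at under 0.5% of cells in both negative libraries, so doublets remain there. Sox9, a duct transcription factor outside the gate, read 613, 660 and 564 UMIs per 1000000 UMIs (CPM) in the duct cells of these libraries and at most 2.74 CPM in the endothelial cells. The 12 endothelial markers summed to 59.5, 132 and 79.3 CPM in the duct cells against 15489 to 19919 CPM in the endothelial cells. The 15 hepatocyte markers (5, 0 and 0 of them at 0) summed to 10511, 8335 and 13119 CPM in duct cells, of which Alb gave 58.1%, 59.2% and 48.5%. Without Alb, Ttr, Trf and Ahsg the other 11 summed to 100.4, 107 and 268 CPM in duct and 63.3, 69.7 and 270.1 CPM in endothelial cells. The 8 proliferation markers summed to 7.44, 3.34 and 126 CPM there, the 10 leukocyte markers (3, 9 and 4 of them at 0) to 413, 41.3 and 16.3 CPM and the 10 dissociation stress genes to 16430, 16783 and 16284 CPM. Median depth per duct cell was 10912, 11193 and 14896.5 UMIs. All brackets are 95% intervals that cover counting error only (exact Poisson for a level, exact binomial for a fold).

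The duct cells carried the highest level of most of the genes. In the negative recovery library, with its 5 stellate cells left out, they led the other classes for 24 of the 29 genes. The intervals of the first and the next class were apart for 21. In the negative injury library they led for 22, with 16 apart, and in the positive recovery library for 24, with 17 apart. The share of all genes led by duct cells was not counted, and duct-cell levels had part in choosing the genes. Nothing is therefore read from these counts. Summed over the 18 sterol enzymes, the level in negative recovery was 1300 CPM in duct, 409 CPM in mesothelial and 230 CPM in endothelial cells. In negative injury the same order held with 569, 265 and 150 CPM, and stellate cells there read 151 CPM. Some genes were higher in another class. Acly, the enzyme that makes cytosolic acetyl-CoA from citrate, read 94.0 CPM in endothelial against 63.5 CPM in duct cells of negative recovery, and Stard4, a carrier of cholesterol between membranes, 86.6 against 66.2 CPM. Scd1, a desaturase of fatty acids, was mesothelial: 88.8, 59.1 and 37.1 CPM in mesothelial cells of positive recovery, negative recovery and negative injury, against 0, 4.32 and 2.03 CPM in duct cells (the 0 allows up to 11.2 CPM) and 3.17, 1.97 and 3.37 CPM in endothelial cells. Srebf2 was likewise highest in mesothelial cells, at 97.9, 161 and 100.6 CPM, although in positive recovery the duct cells read 96.7 CPM with a wide interval (63.1 to 142). In negative injury Insig1 read 17.0 CPM in endothelial and 15.4 CPM in duct cells, and stellate cells led for Mvk and Acaca. Mesothelial cells led for Acaca in negative recovery and stellate cells for Fasn in positive recovery. The intervals of the first and next class overlapped for each of these.

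**Figure D1:**
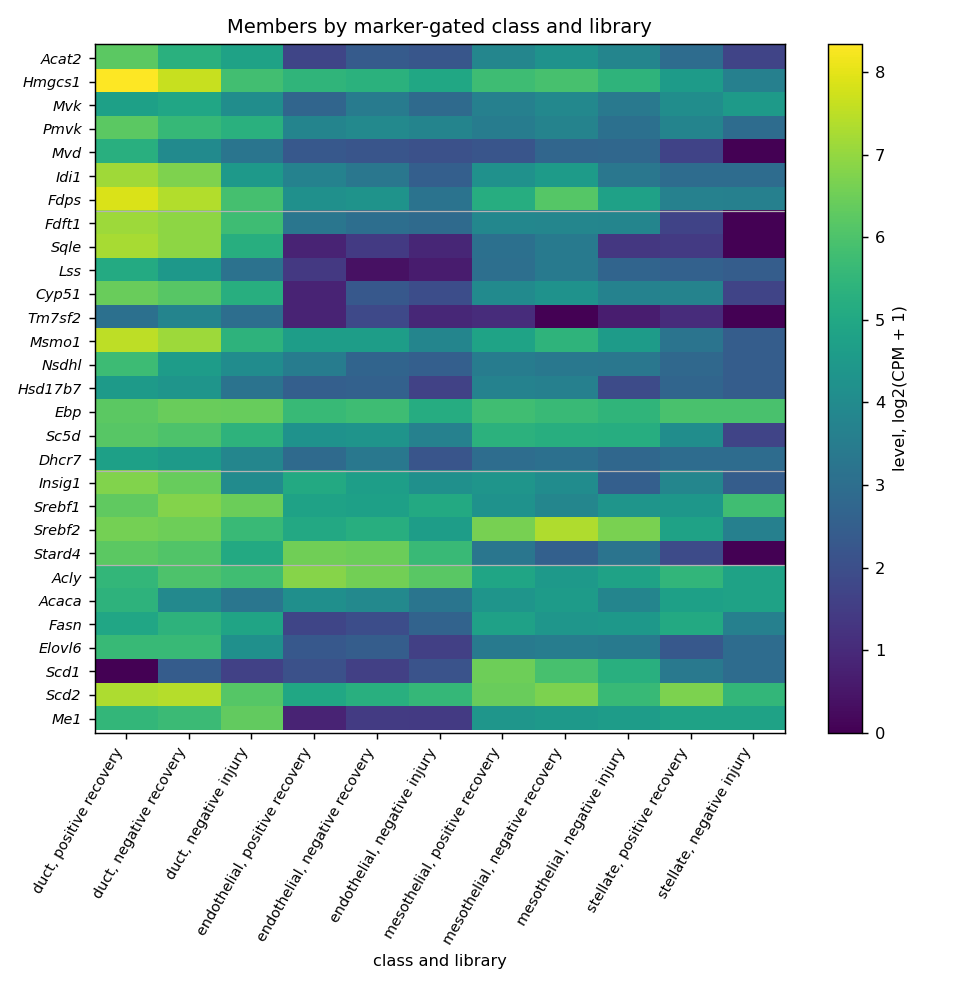
Levels of the 29 genes (one per line) in the marker-gated classes of each library, as log2 of CPM with 1 added. Lines separate genes of the mevalonate pathway, of squalene and its conversion to cholesterol, of control and of fatty acid synthesis. Duct columns are brightest for most sterol genes (Hmgcs1 323 and 201 CPM in positive and negative recovery), whereas Scd1 is bright only in the mesothelial columns. All genes share the same colour scale, with no scaling within a gene, and the 5 stellate cells of negative recovery are not drawn.

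Set against endothelial cells of the same library, 19 of the 28 genes that met the level filter (a mean of at least 5 CPM over both classes) were at least 2-fold higher in duct cells of negative recovery, with 10 CPM added to both values, and 0 were lower. Unless another amount is named, counts of genes past 2-fold below use the same addition, and folds not given as log2 are plain. Of all genes filtered the same way 15.5% were that much higher and 15.1% that much lower, and the median log2 ratio was 1.51 over the genes described against 0.026 over all. In negative injury the count was 14 of 26, beside 16.6% of all genes, with a median of 1.08 against 0.099. Duct-cell levels had part in choosing the genes, so the counts and ratios of this comparison are a description. Sqle, which oxidises squalene, was 119 CPM in duct and 1.66 CPM in endothelial cells of negative recovery (log2 ratio 3.47) and 36.9 and 0.853 CPM in negative injury (2.11). Fdft1, squalene synthase, gave 121 against 6.99 CPM (2.95) in recovery. Cyp51, the lanosterol demethylase, gave 71.1 against 3.94 CPM (2.54). Sqle and Fdft1, which commit isoprenoids to sterol, thus had the largest ratios of the genes described in negative recovery, while Me1 had the largest in negative injury. Fdps read 166 against 18.7 CPM (2.62), Idi1 106 against 8.91 CPM (2.62), Msmo1 138 against 23.8 CPM (2.13) and Hmgcs1 201 against 39.0 CPM (2.11). Me1, malic enzyme and a source of NADPH, had ratios of 2.36 in recovery and 2.95 in injury. Fasn (1.99) and Elovl6 (2.02), which build and lengthen fatty acids, completed the 10 largest ratios of negative recovery. Summed over the 18 sterol enzymes, duct cells stood 5.66-fold (5.45 to 5.88) above endothelial cells in recovery and 3.79-fold (3.64 to 3.94) in injury. The difference between those folds was not tested.

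In duct cells the sterol genes were higher in negative recovery than in negative injury almost as a whole. At least 2-fold higher were 9 of 28 genes and 0 were lower, while 0.776% of the 10442 genes that met the filter were that much higher and 1.89% lower; since this contrast chose the genes, nothing is read from the count. Over the 22 sterol genes all 22 ratios were above 0, with a median log2 ratio of 0.73 against 0.070 over all genes filtered. Of the 22 folds 21 had intervals above 1, and how many of all genes had such intervals was not counted. TMM scaling moved this contrast by -0.14 and left 21 of 22 above 0 with a median of 0.63, the exception being Ebp. The count of 9 was the same without cells rich in hepatocyte RNA and without cells that held a UMI of a proliferation marker. The part of hepatocyte RNA and of dividing cells in the duct difference was not tested.

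Of the mevalonate genes, 3 passed 2-fold in duct cells. Hmgcs1, which makes HMG-CoA, was 323 CPM (259 to 399) in positive recovery, 201 CPM (189 to 214) in negative recovery and 55.7 CPM (52.1 to 59.6) in negative injury, a fold of 3.60 (3.29 to 3.95) between the negative libraries. Idi1, the isomerase that activates isoprene units, read 141, 106 and 22.0 CPM in the same order and differed 4.83-fold (4.21 to 5.54), the 9th largest log2 ratio of the 10442 genes. Fdps, farnesyl diphosphate synthase, read 231, 166 and 58.5 CPM, a fold of 2.84 (2.58 to 3.12). For each of the 3 both recovery libraries lay above injury with no overlap of intervals. The remaining members of the group lay higher in recovery by less. Acat2, the thiolase at the entrance of the pathway, read 74.4, 37.9 and 26.9 CPM, and Pmvk, phosphomevalonate kinase, 74.4, 46.6 and 38.1 CPM. Mevalonate kinase, Mvk, read 26.0, 29.5 and 15.9 CPM, and mevalonate diphosphate decarboxylase, Mvd, 37.2, 14.9 and 8.39 CPM. The summed mevalonate group was 602 CPM in negative recovery and 225 CPM in negative injury, 2.67-fold (2.54 to 2.80) apart.

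Among the genes that make squalene and turn it into cholesterol the folds were uneven. Msmo1, the methylsterol oxidase, read 182, 138 and 40.8 CPM in positive recovery, negative recovery and negative injury duct cells, 3.38-fold (3.03 to 3.76) between the negative libraries. Sqle read 152, 119 and 36.9 CPM, 3.24-fold (2.89 to 3.64), and Fdft1 138, 121 and 52.9 CPM, 2.29-fold (2.06 to 2.54). These 3 passed 2-fold on the log2 scale with 10 CPM added. Lanosterol synthase, Lss, with 33.5, 20.6 and 7.88 CPM, and Hsd17b7, a sterol ketone reductase, with 22.3, 19.3 and 7.94 CPM, had plain folds of 2.62 and 2.42 but stayed within 2-fold after the addition, which shrinks ratios of low levels. Cyp51 read 85.5, 71.1 and 36.9 CPM, a fold of 1.93 (1.69 to 2.20). With plain folds of 1.48 to 1.80, Sc5d, a sterol desaturase, read 70.6, 63.9 and 41.1 CPM, Dhcr7, the reductase that yields cholesterol, 26.0, 22.2 and 13.1 CPM, Nsdhl, a sterol dehydrogenase, 52.1, 23.4 and 15.8 CPM, and Tm7sf2, a sterol reductase, 7.44, 12.6 and 6.99 CPM. Ebp, the sterol isomerase, was the exception of the group, with 74.4, 86.3 and 83.2 CPM and a fold of 1.04 (0.929 to 1.16) whose interval held 1. The group summed to 698 CPM in negative recovery and 344 CPM in negative injury, 2.03-fold (1.95 to 2.12) apart.

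Insig1 had the largest ratio of the 29 genes in duct cells: 108 CPM (72.2 to 155) in positive recovery, 84.5 CPM (76.7 to 92.9) in negative recovery and 15.4 CPM (13.6 to 17.5) in negative injury, 5.47-fold (4.66 to 6.43) between the negative libraries and 8th of all genes by log2 ratio. INSIG1 retains the SREBP precursor in the endoplasmic reticulum, and its gene is itself a target of SREBP. Srebf2 read 96.7, 90.4 and 49.4 CPM (1.83-fold, 1.63 to 2.06) and Stard4 74.4, 66.2 and 32.9 CPM (2.02-fold, 1.75 to 2.32). Srebf1 read 78.1, 110 and 87.7 CPM, a fold of only 1.25 (1.13 to 1.38), and here the positive recovery library lay lowest, with an interval (48.3 to 119) that held both other values.

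Fatty acid genes of duct cells differed in both directions. Scd2 (160, 170 and 70.4 CPM in positive recovery, negative recovery and negative injury; 2.42-fold, 2.21 to 2.64) and the elongase Elovl6 (48.3, 48.7 and 17.0 CPM; 2.86-fold, 2.40 to 3.41) passed 2-fold. Fasn, fatty acid synthase, read 29.7, 41.5 and 28.1 CPM, Acly 44.6, 63.5 and 53.7 CPM and Acaca, acetyl-CoA carboxylase, 40.9, 14.3 and 8.71 CPM, with folds of 1.48, 1.18 and 1.65. Me1 went the other way, with 44.6, 49.9 and 80.3 CPM and a fold of 0.621 (0.541 to 0.712). Scd1 had 22 and 32 UMIs in the negative duct cells (4.32 and 2.03 CPM), too few for the filter, and 0 UMIs in the positive ones, which allows up to 11.2 CPM. Scd1 and Scd2 are similar genes, and the sources used here do not say how reads matching several genes were counted. The group sum was 392 CPM in negative recovery and 260 CPM in negative injury, 1.51-fold (1.43 to 1.59). This was less than the 2.28-fold (2.21 to 2.36) of the 18 sterol enzymes. Since sterol genes led to the choice of the set through this contrast, nothing is read from that order.

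**Figure D2:**
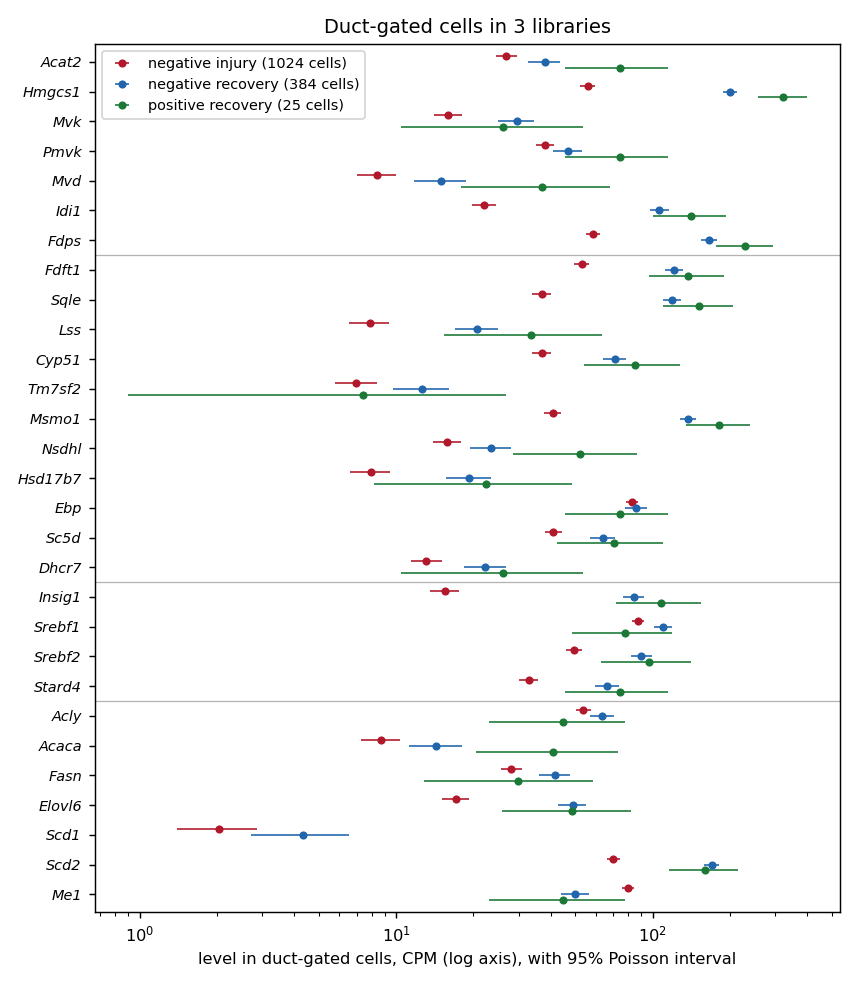
Level of each gene in duct cells (CPM, log axis) in the negative injury, negative recovery and positive recovery libraries, points with 95% Poisson intervals; Scd1 is at 0 in positive recovery and has no point there. Hmgcs1, Idi1, Insig1, Msmo1 and Sqle separate injury (15.4 to 55.7 CPM) from both recovery libraries (84.5 to 323 CPM), while Ebp overlaps in all 3 and Me1 is highest in injury.

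The 25 duct cells of the positive recovery library differ from those of negative injury in reporter fraction as well as in stage. They are set against the same injury values that chose the genes, so their values are a description too. Their sum over the 18 sterol enzymes was 1751 CPM, beside 1300 CPM in negative recovery and 569 CPM in negative injury. Of the 22 sterol genes 20 lay above negative injury, 15 with intervals apart, and of the 7 fatty acid genes 4, with 3 apart. Against negative recovery 19 of 29 genes were higher, with intervals apart for 4, and 0 were lower with intervals apart. The shares of all genes that were higher or had intervals apart were not counted, so nothing is read from these counts. One cell supplied 6.80% of the UMIs of this class, and leukocyte markers, at 413 CPM led by Tyrobp, were higher in it than in the other duct cells. Their part in the sterol levels was not tested.

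The difference was spread over the duct cells. The 18-enzyme sum of the median cell was 1527 CPM in positive recovery, 980 CPM in negative recovery and 456 CPM in negative injury, and the lower quartile of negative recovery (611 CPM) lay near the upper quartile of negative injury (660 CPM). After random thinning of each cell to 2000 UMIs (0, 16 and 40 shallower cells were dropped), 8% of cells in positive recovery held no UMI of the 18 enzymes, 16% in negative recovery and 37.9% in negative injury. At least 3 such UMIs were found in 60%, 39.1% and 11.0% of the thinned cells. In endothelial cells of the same libraries 68.4%, 63.8% and 74.9% of thinned cells held none. Before thinning, 69.0% of negative recovery duct cells and 47.8% of negative injury duct cells had an Hmgcs1 UMI, and 25.3% and 9.55% after it. The top 10% of duct cells by enzyme UMIs held 34.8% of these UMIs in negative recovery and 31.7% in negative injury. The same top cells held 21.1% and 14.6% of all UMIs of the duct cells.

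Within negative recovery the other enzymes summed higher in duct cells that held an Hmgcs1 UMI. The 93 thinned cells with an Hmgcs1 UMI summed to 1570 CPM over the other 17 enzymes, against 905.5 CPM (275 cells without one), a ratio of 1.73 (1.5 to 2.01), and 12 of the 17 were higher. For the 7 fatty acid genes the ratio of the same cells was 1.0 (0.748 to 1.32). In negative injury the 17-enzyme ratio was 1.22 (0.992 to 1.48). Mesothelial cells of positive recovery gave 2.11 (1.70 to 2.60), at 509 against 242 CPM. Endothelial cells gave 1.11 (0.859 to 1.42) in negative recovery and 1.16 (0.865 to 1.53) in negative injury. Of the 17 enzymes, 13 were higher in such duct cells of negative injury and 12 in such mesothelial cells. In endothelial cells 10 were higher in negative recovery and 9 in negative injury. How many of all genes were higher in cells with an Hmgcs1 UMI was not counted, so nothing is read from these counts. The ratios describe cells of single libraries.

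**Figure D3:**
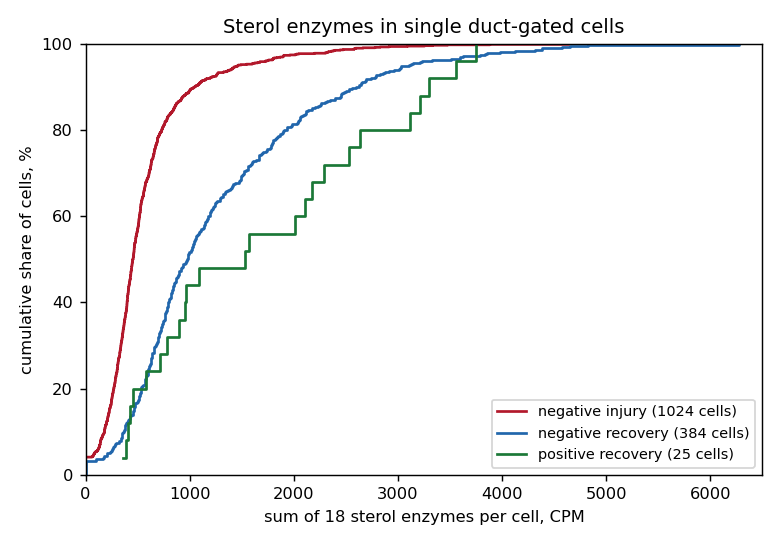
Cumulative share of duct cells (%) by the sum of the 18 sterol enzymes in each cell (CPM) for the 3 libraries. The curve of negative injury climbs first (median 456 CPM) and those of negative recovery (980 CPM) and positive recovery (1527 CPM) lie to its right over most of their length; the positive curve has 25 cells and moves in large steps.

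Endothelial cells were set side by side in the same way, negative recovery against negative injury. At least 2-fold were 0 of the 18 genes that met the filter, in either direction, beside 0.718% of all genes higher and 2.5% lower. Their median log2 ratio was 0.36 against 0.16 over all genes, and TMM scaling moved the contrast by -0.19. Of the 15 sterol genes among them 14 had ratios above 0, and 12 with TMM. Folds had intervals above 1 for 14 of the 22 sterol genes and below 1 for 1. How many of all genes had intervals off 1 was not counted, so nothing is read from these counts. Stard4 read 91.0 CPM in positive recovery, 86.6 CPM in negative recovery and 49.1 CPM in negative injury (1.77-fold, 1.63 to 1.91). Ebp read 48.3, 53.3 and 34.5 CPM here (1.54-fold, 1.40 to 1.70). Fdps, at 17.4, 18.7 and 7.95 CPM, had a plain fold of 2.35 (1.96 to 2.83), and Dhcr7, at 6.33, 9.01 and 3.59 CPM, one of 2.51 (1.92 to 3.31). Hmgcs1 read 42.7, 39.0 and 30.3 CPM (1.28-fold, 1.16 to 1.43), and Insig1 read 32.5, 24.7 and 17.0 CPM (1.45-fold, 1.26 to 1.66). Among fatty acid genes Acly, the highest member within 2-fold, read 112, 94.0 and 72.2 CPM (1.30-fold, 1.22 to 1.39). Scd2 lay the other way at 30.1, 37.2 and 45.7 CPM (0.816-fold, 0.740 to 0.898), as did Srebf1 at 26.9, 26.0 and 32.5 CPM (0.801-fold, 0.714 to 0.899). The 18 enzymes summed to 221, 230 and 150 CPM, 1.53-fold (1.46 to 1.6) between the negative libraries. In these cells the dissociation stress genes summed to 10740 CPM in negative recovery and 16955 CPM in negative injury and the hepatocyte markers to 175 and 649 CPM. Their part in the endothelial folds was not tested.

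Mesothelial cells had fewer counts, with 67 cells in negative recovery. With 10 CPM added, Fdps was the 1 gene of 28 at least 2-fold higher than in negative injury, beside 2.23% of all genes higher and 2.33% lower. It read 35.8 CPM in positive recovery, 68.9 CPM in negative recovery and 26.5 CPM in negative injury (2.60-fold, 1.96 to 3.44), so the positive recovery library lay nearer to injury. TMM scaling moved the contrast by -0.18 and left 0 genes past 2-fold. Srebf2 (1.6-fold, 1.35 to 1.89), Scd2 (102 against 47.7 CPM; 2.13-fold, 1.71 to 2.66), Hmgcs1 (59.9 against 42.4 CPM; 1.41-fold, 1.07 to 1.85) and Scd1 (1.59-fold, 1.20 to 2.10) had intervals above 1, as did Insig1 (15.6 against 4.71 CPM; 3.31-fold, 1.71 to 6.31). Sqle rested on 12 and 8 UMIs (6.27-fold, 2.36 to 17.7). In all, 8 of 22 sterol genes had folds with intervals above 1, 0 below and 14 held 1. How many of all genes had such intervals was not counted, so nothing is read from these counts. Tm7sf2 had 0 UMIs in negative recovery, which allows up to 2.46 CPM. The 18 enzymes summed to 409 and 265 CPM (1.54-fold, 1.39 to 1.71). In negative recovery 7 of the 67 cells held 47.2% of these UMIs (13.6% of all UMIs), against 26.0% in the top 26 cells of negative injury (15.3%), and the median cells read 265 and 241 CPM. Dissociation stress genes were lower in recovery here too, at 10883 and 17735 CPM, while endothelial markers summed to 320.0 and 99.5 CPM and duct markers to 3508 and 2448 CPM. Their part in the mesothelial folds was not tested. Whether the duct, endothelial and mesothelial folds differ from each other was not tested either.

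**Figure D4:**
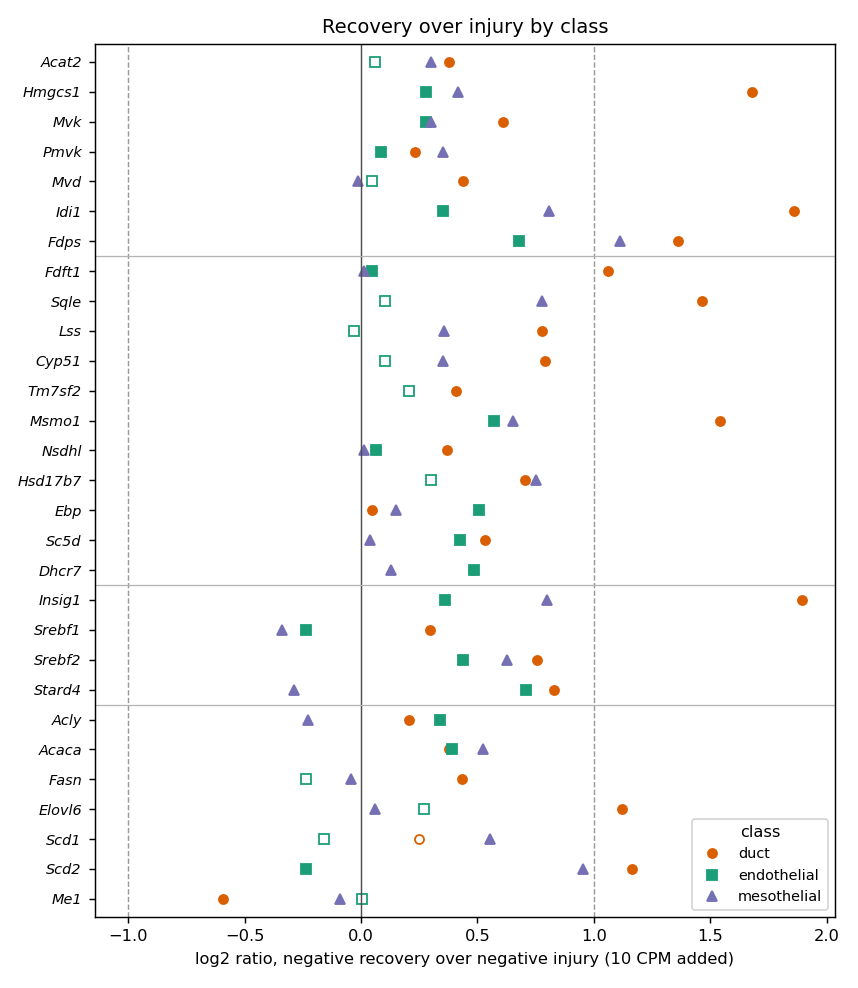
Log2 ratio of negative recovery over negative injury (10 CPM added) for each gene in duct, endothelial and mesothelial cells; dashed lines mark 2-fold and open symbols a mean under 5 CPM, which the counts leave out. Duct points lie to the right for most sterol genes (up to 1.89 for Insig1), Me1 lies to the left in duct cells, and Srebf1 lies left of 0 in endothelial and mesothelial cells.

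Over all cells of a library, fewer cells of a type and less RNA per cell cannot be told apart. With 10 CPM added, 0 of 27 genes differed 2-fold between negative recovery and negative injury, beside 1.38% of all genes higher and 3.06% lower. Acly read 83.5 and 58.6 CPM, Stard4 77.6 and 37.3 CPM, Hmgcs1 74.6 and 42.8 CPM and Insig1 36.7 and 15.6 CPM. Idi1 read 29.8 and 12.6 CPM and Me1 13.3 and 35.4 CPM. Without the addition Stard4, Insig1 and Idi1 lay more than 2-fold higher in recovery and Me1 more than 2-fold lower. Duct cells were 13.0% of the cells of negative recovery and 18.8% of those of negative injury, so the class with the highest sterol levels was a smaller share of the recovery library. Between the reporter fractions of recovery, 1 of 28 genes was at least 2-fold higher in the positive library (8.23% of all genes were) and 1 lower (9.49%). Scd1 read 70.3 CPM in the positive and 6.18 CPM in the negative library (log2 ratio 2.31), and Stard4 14.5 and 77.6 CPM (-1.84). Mesothelial cells made up 53.6% of the positive and 2.27% of the negative recovery cells, and endothelial cells 6.13% and 77.5%. Within endothelial cells the fractions differed 2-fold for 0 of 18 genes, beside 0.855% of all genes higher and 0.0721% lower, and the 18-enzyme fold was 0.962 (0.849 to 1.09). In mesothelial cells it was 0.830 (0.758 to 0.911), with 0 of 27 genes 2-fold apart beside 1.18% of all genes higher and 0.109% lower. Fdps (0.519-fold, 0.414 to 0.658), Srebf2 (0.609-fold, 0.526 to 0.708) and Msmo1 (0.659-fold, 0.495 to 0.895) lay lower in the positive mesothelial cells and Scd1 higher (1.5-fold, 1.19 to 1.93). The comparisons between fractions and between stages share the negative recovery library.

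Mesothelial and stellate cells could be set side by side in positive recovery, where 4 of 26 genes were at least 2-fold higher in mesothelial cells and 0 lower, beside 8.1% and 8.37% of all genes. Scd1 read 88.8 and 9.41 CPM (log2 ratio 2.35), Srebf2 97.9 and 27.1 CPM (1.54), Fdps 35.8 and 11.6 CPM (1.08) and Msmo1 27.6 and 8.30 CPM (1.04). Scd2 read 86.2 and 102 CPM (0.842-fold, 0.723 to 0.984) and Ebp 53.6 and 60.9 CPM (0.881-fold, 0.724 to 1.08). Hmgcs1 read 53.0 and 22.7 CPM (2.33-fold, 1.71 to 3.27). The 18 enzymes summed to 339 and 204 CPM, 1.66-fold (1.5 to 1.85).

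Other genes of lipid handling were taken as lists by function. Of 12 other genes of fatty acid and glycerolipid synthesis, 1 was at least 2-fold higher in duct cells of negative recovery than of negative injury and 0 were lower, beside 0.776% and 1.89% of all genes. Fads1, a desaturase of long fatty acids, read 55.4 and 17.5 CPM (log2 ratio 1.25). Of 15 genes of fatty acid oxidation 0 differed 2-fold in these cells in either direction, with a median log2 ratio of 0.0037, and of 9 of fatty acid uptake and storage 0 (-0.27).

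Of 10 genes of sterol efflux and the oxysterol response, 3 were at least 2-fold lower in recovery endothelial cells and 0 higher, beside 2.5% and 0.718% of all genes. Abca1, which exports cholesterol, read 43.5 CPM in positive recovery, 36.9 CPM in negative recovery and 211 CPM in negative injury (log2 ratio of the negative libraries -2.24). Ch25h, which makes the oxysterol that restrains SREBP processing, read 3.17, 9.01 and 62.8 CPM (-1.94), and Cyp7b1, which breaks such oxysterols down, 3.17, 3.78 and 20.6 CPM (-1.15). Both recovery libraries lay below injury for each of the 3. In duct cells Abca1 was the 1 gene of 8 past 2-fold, at 9.43 and 38.8 CPM (-1.33), beside 1.89% of all genes lower, and Ch25h had 0 UMIs in duct cells of every library. In mesothelial cells 2 of 10 were higher and 1 lower, beside 2.23% and 2.33% of all genes. The higher ones were Nceh1, a cholesteryl ester hydrolase (113 and 36.3 CPM; 1.41), and Apoe (1433 and 615 CPM; 1.21), and Cyp7b1 was the lower one (7.38 and 41.8 CPM; -1.57), while Abca1 read 63.2 and 59.6 CPM. Apoe, an acceptor of exported cholesterol, was also higher in recovery endothelial cells, at 4592 against 2596 CPM, so the efflux list did not lie on one side.

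**Figure D5:**
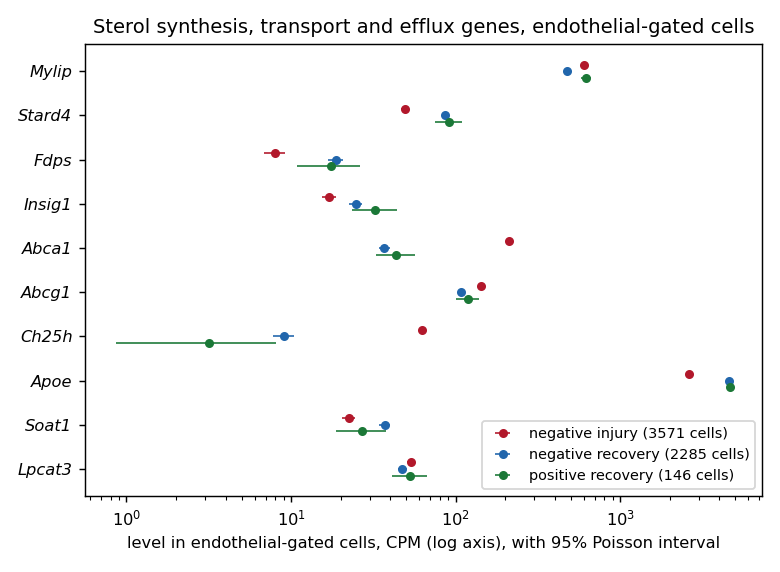
Levels in endothelial cells (CPM, log axis, 95% Poisson intervals) of 10 selected genes of sterol and lipid handling in 3 libraries. Stard4 and Fdps are higher in both recovery libraries than in injury, Abca1 and Ch25h lower, and Apoe higher.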

How the data were processed

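The deposited matrices hold UMI counts per gene and barcode from 10x 3' v2 libraries and carry software version 3.1.0, per the file headers. The submitters' processing notes name featureCounts 1.6.2 and the builds GRCh38 and mm10. No aligner and no cell-calling rule is named, and how the reporter fractions were separated is not given. Per the labels' protocols, livers were dissociated with pronase (14 mg) and collagenase (3.7 U per animal).

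From the deposited counts, cells were kept from 500 UMIs and 300 genes upward if mitochondrial UMIs did not exceed 20% (2488, 2955 and 5448 in positive recovery, negative recovery and negative injury). Called doublets were removed with Scrublet in scanpy 1.11.5 (seed 7): 108, 6 and 5 cells, or 4.34%, 0.203% and 0.0918%, so calling failed for negative recovery and negative injury. Cells in no gate (665, 141 and 375) or in more than 1 gate (126, 67 and 180) entered no class. UMIs were summed per class and library and scaled to 1000000 UMIs per class (CPM). Ratios are log2 of CPM with 10 added. Genes with a mean of at least 5 CPM entered the counts of 2-fold differences, in 10 comparisons of classes with at least 30 cells on both sides. A count of 0 was given the limit of 3 counts. Duct cells of positive recovery and stellate cells of negative recovery were too few for such a comparison between libraries. Scripts ran in Python 3.11.15 and, for TMM, edgeR 4.0.16, and the ratio code was checked on simulated counts. The genes and lists were chosen with earlier results of these data known. All 29 genes were named, and of the other lists up to 3 genes with the largest ratios past 2-fold; genes named outside this rule (Apoe and Abca1 in classes where they did not pass, and the markers) were chosen after their values were seen. A further list of sterol synthesis and uptake genes is not reported here.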

Additional observations from a re-analysis of the deposited data

Results flagged for a closer look

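For 4 genes the recovery-to-injury folds of the negative libraries lay on opposite sides of 1 in different classes, each with a 95% counting interval off 1. The differences between classes were not tested, since each group was 1 library. Srebf1 was 1.25-fold in duct and 0.801-fold in endothelial cells. Fasn was 1.48-fold in duct and 0.562-fold in endothelial cells, the latter at under 6 CPM in both libraries. Scd1 was 2.13-fold in duct, 0.585-fold in endothelial and 1.59-fold in mesothelial cells, of which only the mesothelial level passed 5 CPM. Scd2 was 2.42-fold in duct, 0.816-fold in endothelial and 2.13-fold in mesothelial cells.

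The duct cells of the positive recovery library, 25 cells and so under the minimum of 30 for counting 2-fold differences, summed to 1751 CPM over the 18 sterol enzymes, above the 569 CPM of duct cells in negative injury.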

How the results depend on the processing

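No replicates exist, so none could be left out, and intervals cover counting error only. No paired analysis was possible because each group was 1 library. Over 633 recomputed ratios of the 49 gene-by-comparison values past 2-fold, 0 changed direction and 119 moved beyond their counting interval. Another added amount, or no level filter, cannot change a direction, and the ratios were picked for being large. The 0 was thus partly fixed in advance. Of 252 recomputed counts of genes past 2-fold, 231 stayed within 1.5 times. Many of these counts were 0 under the main settings. Thinning and leaving out cells with proliferation-marker UMIs were chosen after seeing the data.

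In duct cells, recovery against injury, the 9 genes higher became 4 with 50 CPM added and lay between 8 and 11 under the other settings. The 19 genes higher in duct than endothelial cells of negative recovery became 9 and the 14 of negative injury 1 with 50 CPM added. For mesothelial cells, recovery against injury, the 1 gene higher became 0 with TMM or 50 CPM added, 6 with 1 CPM added, 4 after thinning to 2000 UMIs and 2 without cells with proliferation-marker UMIs. For endothelial cells the 0 higher became 2 with 1 CPM added. Over all cells, recovery against injury, 0 higher became 3 with 1 CPM added, and 0 lower became 1 with TMM or 1 CPM added. Between fractions over all cells the 1 higher became 2 with 1 CPM added or after thinning, and the 1 lower became 5 with 1 CPM added, 0 with 50 CPM added and 2 without cells with proliferation-marker UMIs. Between fractions, endothelial 0 higher became 1 with cells of more than 1 gate kept, and mesothelial 0 lower became 1 after thinning. The 4 genes higher in mesothelial than stellate cells became 10 with 1 CPM added and 1 with 50 CPM added. The amount added acts through its own construction, shrinking ratios of low levels as it grows; for the other settings the cause was not tested.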
